A study of Homo sapiens with 24 samples.

Results

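The mRNAs described here are 48 transcripts whose proteins build and run the mitotic spindle and the kinetochore. They were taken by symbol from a list that was drawn up with earlier results of these data known, and all 48 were found among the 60308 genes of the exon count table and among the 37473 genes of the intron count table. All 48 passed the filter of a mean of at least 1 CPM (counts scaled to a library total common to all libraries) on exon counts, within 17666 tested genes, and 46 passed it on intron counts, within 17406 tested genes.

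The cells were U2OS, a human osteosarcoma line, and the cytoplasm of each lysate was split into a soluble fraction and an insoluble fraction that was pelleted after the nuclei had been removed and that is enriched in ribonucleoprotein granules. The 4 treatments were Ctrl (0.12% DMSO for 2 h), NaAsO2 (500 µM sodium arsenite for 60 min, a source of oxidative stress that induces stress granules), RK-33 (6 µM of this inhibitor of the ATPase of the RNA helicase DDX3, stated as a 1 h pre-treatment) and Combo (RK-33 followed by NaAsO2). By the study's methods the 2 h of DMSO in Ctrl match how long and when treated cells had RK-33. A DMSO level is stated for Ctrl alone. With 3 replicates each this gave 8 groups and 24 libraries of rRNA-depleted RNA, and the 2 fractions of a replicate came from the same lysate. By the study's methods the experiment was repeated 3 times for every condition, and the p-values measure the spread between these repeats. All values come from a single cell line.

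At mitosis a cell replaces its interphase microtubules with a bipolar spindle. Kinesin motors slide and shorten the microtubules, kinetochores assembled on the centromeres hold the chromosomes to them, and the spindle checkpoint delays anaphase until every kinetochore is attached. Cyclin B with CDK1 drives entry into this state, and the anaphase-promoting complex with CDC20 ends it by destroying cyclin B and securin. Most of these genes are transcribed mainly in G2 and M phase, so in a growing bulk culture their mRNA comes from a part of the cells, and in bulk RNA fewer cells of that kind and less RNA per cell cannot be told apart.

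Exon totals ran from 8.63e+06 to 1.54e+07 counts per library and intron totals from 1.62e+06 to 6.09e+06. The library NaAsO2 insoluble replicate 3 stood apart: the 7SL RNA gene RN7SL1 took 5.79% of its exon counts, against 0.426% to 1.23% in the other 11 insoluble libraries and 7.51% to 15.5% in the soluble ones, and it held 7944 CPM of COL1A1 against 1178 and 1485 CPM in its replicates. Counts of calls that use this library are therefore also given without it. RK-33 soluble replicate 3 and Combo insoluble replicate 3 also lay apart, to a lesser degree. The chi-square per degree of freedom between 2 replicates was 130 to 142 for pairs with NaAsO2 insoluble replicate 3, 23.1 and 32.4 for RK-33 soluble replicate 3, 25.5 and 32.1 for Combo insoluble replicate 3, and 2.39 to 7.01 for all other pairs. Of 6 osteoblast and mesenchymal markers 5 passed the filter (COL1A2 was at most 2.28 CPM), their sum lying between 2206 and 9463 CPM, whereas 5 markers of epithelial, blood and endothelial cells summed to 8.46 to 17.5 CPM, with CD3E at or near 0. The nuclear RNAs MALAT1, NEAT1 and KCNQ1OT1 were present in every cytoplasmic library, with a sum of 2381 to 3506 CPM in NaAsO2 insoluble, 5630.1 to 6231 in Combo insoluble, 6619 to 7517 in RK-33 insoluble and 6972 to 8922 in Ctrl insoluble. In the soluble libraries the sum was 6283 to 8571 CPM under NaAsO2 and 8127 to 15658 CPM in the other treatments.

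CPM values below are scaled by the trimmed mean of M values (TMM). They are relative to the other RNAs of a library, between treatments as well as between fractions. A rise or fall below is therefore not a change in absolute amount. The study added spike-in RNA and scaled its own differential analysis of whole RNA to it, and that scaling was not used here. Together the 48 mRNAs took 0.723% to 0.755% of the exon counts of the Ctrl soluble libraries and 1.15% to 1.18% of the Ctrl insoluble ones. The share in NaAsO2 insoluble was 1.21%, 1.11% and 0.599% in replicates 1, 2 and 3, so that replicate 3 was the lowest of all 24 libraries. Per kilobase of exon the most abundant member in Ctrl soluble was ANLN (anillin, the scaffold of the cleavage furrow) at 123.9 ± 2.01 CPM per kb (SD, n = 3). It was followed by TPX2 (spindle assembly factor that activates Aurora A) at 90.7 ± 3.87, CCNB1 (cyclin B1) at 88.97 ± 4.05 and CDC20 at 86.5 ± 5.62 CPM per kb, 3 neighbours whose values lay within their spread. PRC1 (4.15 to 5.61 CPM) and NUSAP1 (0.922 to 2.06 CPM) were barely counted in Ctrl soluble. By the exon positions deposited with the counts, 61.9% of the exon bases of PRC1 and 81.4% of those of NUSAP1 are shared with other genes. Reads there could not be assigned, so the levels of these 2 members are uncertain. Neither passed the test with all libraries, and NUSAP1 was called in 1 comparison (NaAsO2 against Ctrl, insoluble) when NaAsO2 insoluble replicate 3 was left out.

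As a group these mRNAs are AT-rich at the third codon position and have short 3' untranslated regions. The median share of codons ending in G or C was 39.7% in the 48 members and 59.4% in the 13441 coding genes tested, and the median 3' untranslated region was 744 bases against 1366. Coding sequences ran from 423 bases (CENPA, the centromeric histone) to 10434 bases (ASPM, a spindle pole protein), with a median of 2211 against 1449 in all coding genes. The first 90 bases of the coding sequence are shown for the 2 members with the lowest and the 2 with the highest share over the whole coding sequence, 5′ to 3′, from GENCODE 44 canonical transcripts on GRCh38, with every G or C at the last position of a codon in capitals. They are shown because the members' fraction ratios and their change under arsenite are described along these features further on.
DLGAP5: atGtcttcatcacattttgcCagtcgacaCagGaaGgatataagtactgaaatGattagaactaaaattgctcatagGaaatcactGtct
KIF20B: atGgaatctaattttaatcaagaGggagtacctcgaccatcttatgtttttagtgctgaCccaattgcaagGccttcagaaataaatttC
INCENP: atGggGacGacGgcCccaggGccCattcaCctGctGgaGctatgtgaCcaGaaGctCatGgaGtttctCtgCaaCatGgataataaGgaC
SPC24: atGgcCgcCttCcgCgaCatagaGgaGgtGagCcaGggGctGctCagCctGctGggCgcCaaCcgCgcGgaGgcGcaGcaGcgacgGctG
The 30 codons shown hold 8 such ends in DLGAP5, 5 in KIF20B, 23 in INCENP and 28 in SPC24, and over the whole coding sequence the shares are 27.2%, 28.8%, 75.6% and 79.3%. DLGAP5 lies on the minus strand at chr14:55148112-55191608, INCENP on the plus strand at chr11:62123998-62153169 and SPC24 on the minus strand at chr19:11131520-11155807.

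In Ctrl cells the large transcripts of this group were mostly enriched in the insoluble fraction and the small ones in the soluble fraction. Each library was scaled to its own total, so a ratio is relative to the other RNAs of each fraction. It does not give the fraction that held most of the molecules. Insoluble and soluble Ctrl libraries were compared with edgeR's quasi-likelihood test, and a member was called at an adjusted p under 0.05. Of the 48 members 19 were called higher in the insoluble fraction and 13 lower, with a median log2 ratio of 0.14 (-0.02 over all genes), while 24.6% of all genes were called higher and 26.4% lower.

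Of the 9 motors, 8 were called higher in the insoluble fraction and none lower. KIF4A, a chromokinesin that shapes the central spindle, read 82.0, 93.3 and 84.6 CPM in Ctrl soluble and 214, 240 and 249 CPM in Ctrl insoluble. The groups did not overlap, and the log2 ratio was 1.44 ± 0.10 (SE, adjusted p = 5.78e-10). KIF2C, which takes microtubule ends apart at the kinetochore, read 136, 155 and 128 CPM against 268, 293 and 303 CPM, a log2 ratio of 1.04 ± 0.11 (adjusted p = 6.67e-08). KIF18A, which limits microtubule length and is named here after its values were seen, was the motor that was not called, with 67.2, 68.5 and 62.3 CPM soluble and 72.8, 66.2 and 76.3 CPM insoluble.

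Among the kinetochore members the long and the short transcripts lay on opposite sides. CENPF, KNL1 and CENPE, a large matrix protein, the scaffold that recruits the BUB kinases and a kinesin that moves chromosomes, had log2 ratios of 1.54, 1.24 and 1.11 and were called higher. CENPA, SPC24 and SPC25, the centromeric histone and a pair of subunits of the NDC80 complex, had -0.94, -1.10 and -0.79 and were called lower. The other subunits of that complex, NDC80 (149, 148 and 148 CPM soluble, 122, 121 and 122 insoluble) and NUF2 (68.8, 74.4 and 65.2 soluble, 72.1, 66.7 and 64.5 insoluble), were not called. In the checkpoint the kinase BUB1 (134, 136 and 126 CPM soluble, 249, 270 and 278 insoluble) and BUB1B were called higher, and BUB3 and MAD2L1 (47.4, 48.8 and 48.6 soluble, 23.2, 23.7 and 21.1 insoluble) lower. The kinase TTK was not called, at 41.0, 45.2 and 42.7 CPM soluble and 50.6, 55.2 and 60.7 insoluble.

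Of the 6 mitotic kinases and chromosomal passengers INCENP alone, the scaffold of the passenger complex, was called higher in Ctrl (147, 148 and 139 CPM soluble, 229, 234 and 239 insoluble). AURKA, AURKB, BIRC5 (survivin) and CDCA8 (borealin) were called lower, BIRC5 with 259, 315 and 243 CPM soluble and 113, 122.8 and 114 insoluble. So within the passenger complex the scaffold and its 3 partners were called in opposite directions. PLK1, with 69.5, 77.1 and 70.7 CPM soluble and 83.1, 82.2 and 77.1 insoluble, was not called. Among the cyclins and the anaphase genes ESPL1 (separase, the protease that cuts cohesin) read 55.8, 57.7 and 53.0 CPM soluble and 172, 176 and 177 insoluble, and PTTG1 (securin, its inhibitor) 102, 117 and 103 soluble and 44.6, 45.3 and 42.5 insoluble. Separase mRNA had a log2 ratio of 1.65 ± 0.14 (adjusted p = 2.93e-09) and securin mRNA was lower in every insoluble library than in any soluble one. TOP2A (topoisomerase II) and MKI67 (Ki-67, a coat of mitotic chromosomes) had the highest ratios of all members, 1.87 and 1.86, MKI67 reading 639, 600 and 616 CPM soluble and 2045, 2230 and 2479 insoluble.

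**Figure D1:**
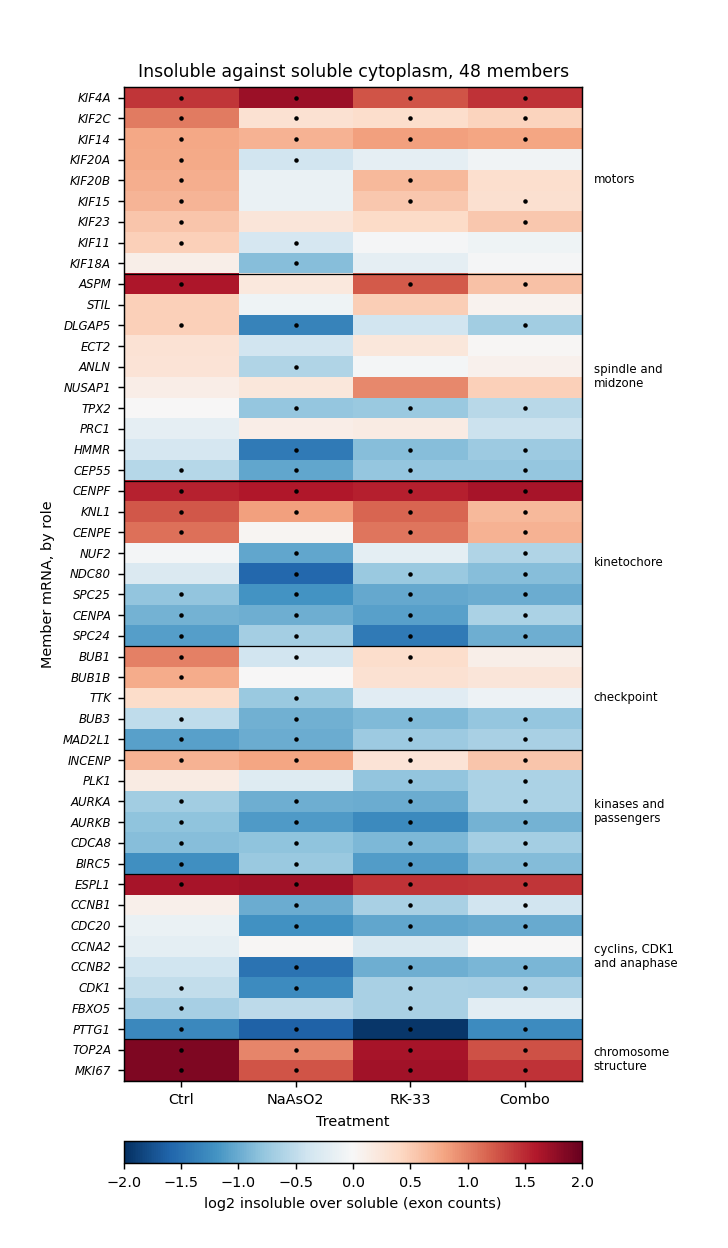
Each row is a member grouped by role and each column a treatment; colour is the log2 ratio of insoluble over soluble exon counts (red higher in the insoluble fraction, blue lower) and a dot marks an adjusted p under 0.05. CENPF, ESPL1 and KIF4A stay red and PTTG1, AURKB and BIRC5 stay blue in all 4 columns, while DLGAP5, BUB1, KIF11 and KIF20A are red in Ctrl and blue under NaAsO2.

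Across the 46 members with a mean of at least 5 CPM the log2 ratio in Ctrl rose with the length of the coding sequence, with a Spearman rho of 0.93 against 0.80 across 11118 coding genes. These are correlations across genes that share the same libraries, given as a description. The 16 members with the shortest coding sequences, 423 to 1395 bases, had a median log2 ratio of -0.74, and 12 of them were called lower and none higher. The 15 longest, 3171 to 10434 bases, had a median of 1.11, with 13 called higher and none lower. The length of the 3' untranslated region ran with the ratio much less (rho -0.07 in the members and 0.14 in all coding genes). With each library's trend with exon length removed, 20 members were called higher and 9 lower.

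**Figure D2:**
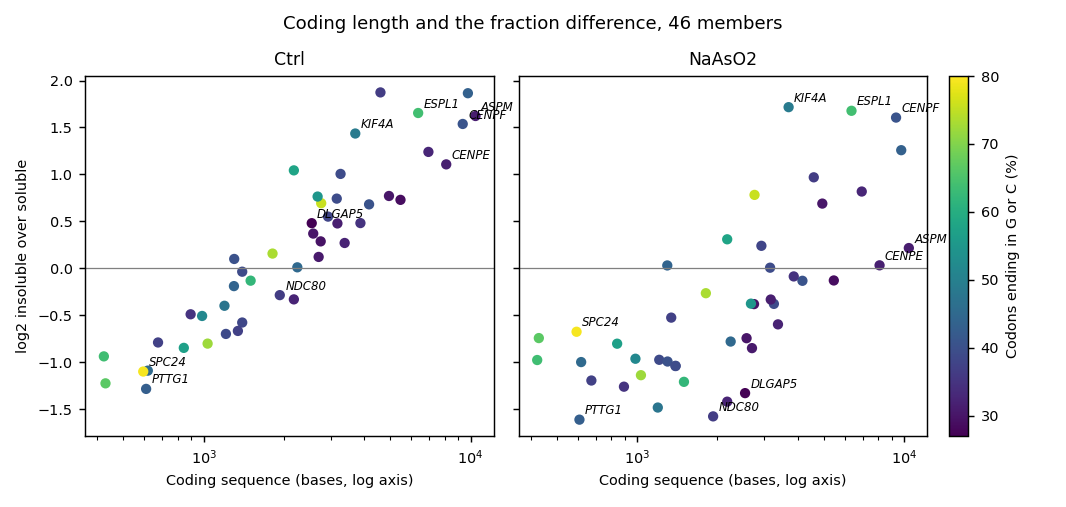
Each point is 1 of 46 members, placed by the length of its coding sequence in bases (log axis) and its log2 ratio of insoluble over soluble exon counts in Ctrl (left) and NaAsO2 (right), and coloured by the percentage of codons ending in G or C. In Ctrl the points climb from PTTG1 (-1.28) to ASPM (1.62), and under NaAsO2 dark points (few codons ending in G or C) of middle length such as DLGAP5 (-1.33) and NDC80 (-1.58) lie far below.

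Under arsenite the balance moved toward the soluble fraction. In NaAsO2 cells 9 members were called higher in the insoluble fraction and 26 lower, with a median log2 ratio of -0.45 (0.06 over all genes), while 28.9% of all genes were called higher and 28.8% lower. Without NaAsO2 insoluble replicate 3 the counts were 12 and 25, and 27.5% of all genes were called higher and 33.7% lower. KIF4A (log2 ratio 1.72 ± 0.10, adjusted p = 6.71e-12) and ESPL1 (1.68 ± 0.14, adjusted p = 4.93e-10) had the smallest adjusted p among the members called higher, and CDC20 (-1.21 ± 0.12, adjusted p = 1.95e-08) and CCNB1 (-0.99 ± 0.10, adjusted p = 1.89e-08) among those called lower. With all libraries the rho with coding length across the 46 members was 0.74 (0.60 over all coding genes).

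The change of the insoluble over soluble ratio between NaAsO2 and Ctrl, called the fraction shift here, was tested as an interaction in the same fit. Of the 48 members 21 were called toward the soluble fraction and none toward the insoluble one, with a median log2 shift of -0.59 (0.00 over all genes), while 11.5% of all genes were called toward the insoluble fraction and 10.8% toward the soluble one. Without NaAsO2 insoluble replicate 3, 30 members were called toward the soluble fraction, all 21 among them, and none the other way, with a median of -0.56. The count fell to 13 without Ctrl soluble replicate 1, 12 without Ctrl soluble replicate 3 and 13 without Ctrl insoluble replicate 2, all among the 21, and it was 10 with the 4 groups fitted alone and 13 with library size as the only scaling. With the lysate as a replicate block 20 were called, CDK1 being the one lost (adjusted p = 0.0501). In 28 members all 3 NaAsO2 lysates had a lower log2 ratio than any Ctrl lysate, and these 28 include the 21. The share of all genes that met this was not counted, so the 28 only describe the members.

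The mRNA with the lowest shift was DLGAP5 (HURP, which bundles microtubules near the chromosomes). It read 200, 224 and 199 CPM in Ctrl soluble, 282, 289 and 300 in Ctrl insoluble, 334, 293 and 348 in NaAsO2 soluble, and 170, 148 and 69.2 in NaAsO2 insoluble. It was thus higher in the pellet in all 3 Ctrl lysates and lower in the pellet in all 3 NaAsO2 lysates, with a shift of -1.81 ± 0.28 (SE, adjusted p = 9.44e-05) that was -1.54 ± 0.17 without replicate 3. Its lysate log2 ratios were 0.49, 0.36 and 0.59 in Ctrl and -0.97, -0.98 and -2.32 in NaAsO2, the last being replicate 3.

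With all libraries 4 members were called higher in the insoluble fraction in Ctrl and lower in NaAsO2: DLGAP5, BUB1, KIF11 and KIF20A. The share of all genes with this pattern was not counted. Without NaAsO2 insoluble replicate 3 only DLGAP5 of the 4 was called lower in NaAsO2 (log2 ratio -1.06 ± 0.13), BUB1 (-0.17 ± 0.10), KIF11 (-0.18 ± 0.11) and KIF20A (-0.17 ± 0.11) not being called, whereas the shift was called for all 4. BUB1 went from 249, 270 and 278 CPM in Ctrl insoluble to 192, 185 and 102 in NaAsO2 insoluble, while its soluble level went from 134, 136 and 126 to 213, 192 and 218 CPM. The shift was -1.38 ± 0.22 (adjusted p = 9.76e-05), and -1.17 ± 0.14 without replicate 3. KIF20A, a motor of the central spindle, read 85.2, 93.1 and 104 CPM in Ctrl insoluble and 83.97, 85.1 and 45.9 in NaAsO2 insoluble, and in the soluble fraction 51.9, 59.2 and 55.3 against 96.7, 86.1 and 97.3. Replicates 1 and 2 of NaAsO2 insoluble lay close to Ctrl, so in those lysates the ratio moved through the soluble level.

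Among the regulators of mitotic entry and exit CCNB1 moved evenly across replicates. It read 212, 228 and 210 CPM in Ctrl soluble, 219, 233 and 244 in Ctrl insoluble, 309, 283 and 344 in NaAsO2 soluble and 159, 157 and 155 in NaAsO2 insoluble. Replicate 3 did not stand apart for this mRNA, and the shift of -1.09 ± 0.14 (adjusted p = 1.43e-05) was -1.11 ± 0.14 without it. CDC20, the activator that targets cyclin B1, had a shift of -1.08 ± 0.17 (adjusted p = 0.000123), with 166, 187 and 170 CPM soluble and 156, 164 and 157 insoluble in Ctrl, and 285, 249 and 308 soluble and 115, 121 and 128 insoluble in NaAsO2. CCNB2 and CDK1 were also called (-1.08 and -0.77). The CDK1 result was the same in only 7 of 23 alternative fits, where its shift ran from -0.96 to -0.32. CCNA2, ESPL1 and FBXO5 (EMI1, an inhibitor of the anaphase-promoting complex) were not, with shifts of 0.22, 0.02 and 0.14. PTTG1 was called only without replicate 3, at -0.94 ± 0.16 against -0.33 ± 0.32 with it.

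By role, 4 of 9 motors, 5 of 10 spindle and midzone members, 3 of 8 kinetochore members, 4 of 5 checkpoint members and 4 of 8 cyclin, CDK1 and anaphase members were called toward the soluble fraction, as was TOP2A. None of the 6 mitotic kinases and passengers was called, their shifts running from -0.42 (PLK1) to 0.48 (BIRC5), although PLK1 and AURKB were called without replicate 3. The lysate log2 ratios of BIRC5 were -1.19, -1.35 and -1.09 in Ctrl. In NaAsO2 they were -1.31, -0.93 and -0.24, the last being replicate 3. Over the alternative fits its shift ran from 0.02 to 0.68. Within the NDC80 complex NDC80 (-1.29 ± 0.23, adjusted p = 0.000303) and NUF2 (-1.003) were called, and SPC24 (0.42) and SPC25 (-0.41) were not. Without replicate 3 SPC25 was called as well (-0.50 ± 0.19, adjusted p = 0.0479) and SPC24 was at -0.13 ± 0.22, and the difference between the subunits was not tested. NDC80 read 122, 121 and 122 CPM in Ctrl insoluble and 72.4, 70.9 and 37.2 in NaAsO2 insoluble, whereas SPC24 read 28.98, 32.2 and 28.2 and then 36.1, 38.2 and 88.2, the last value in replicate 3. The checkpoint member that was not called was MAD2L1, at 0.09 ± 0.16. For BUB3, which was called, the result was the same in 11 of 23 alternative fits, with shifts from -0.61 to -0.12.

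**Figure D3:**
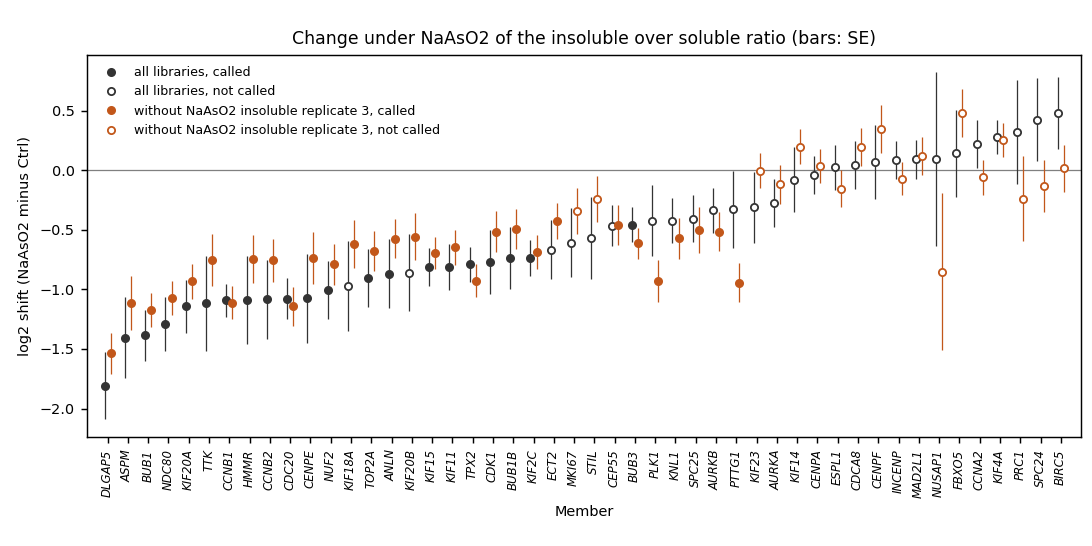
Each member has 2 points, its log2 fraction shift (NaAsO2 minus Ctrl, y axis) with all libraries in black and without NaAsO2 insoluble replicate 3 in orange; bars are SE and filled points passed the test. Called points lie below 0 from DLGAP5 (-1.81) to BUB3 (-0.46), and PTTG1 and PLK1 are among the points filled only in orange.

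The shift differed along the same features that set these mRNAs apart. The 16 members with the shortest 3' untranslated regions, 58 to 521 bases, had a median shift of -1.08 and 12 calls, the next 15 a median of -0.46 and 5 calls, and the 15 longest, 994 to 6632 bases, a median of -0.42 and 4 calls. The 16 members with the fewest codons ending in G or C had a median of -0.89 and 10 calls, and the 15 with the most a median of -0.04 and 5 calls. Spearman's rho was 0.49 with each feature, against 0.27 and 0.39 over the 11118 coding genes, again as a description across genes. These medians, calls and rhos were taken with all libraries and not without NaAsO2 insoluble replicate 3. How far they rest on that library was not tested.

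Lists of related genes that are not members had smaller medians. Of 25 other kinetochore and centromere genes 4 were called toward the soluble fraction (median -0.27), of 21 spindle and centrosome genes 5, with 2 the other way (-0.20), of 15 subunits of the anaphase-promoting complex 4 (-0.41), of 19 condensin and cohesin genes 6 (-0.20) and of 25 G1/S genes 9, with 1 the other way (-0.34). These lists were not counted without NaAsO2 insoluble replicate 3, and their difference from the members was not tested.

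Within each fraction, arsenite was set against Ctrl directly. In the soluble fraction 17 members were called higher and none lower (median 0.38, all genes 0.03), while 5.97% of all genes were called higher and 6.99% lower. The calls with the smallest adjusted p were KIF2C, from 136, 155 and 128 CPM to 227, 197 and 237 (0.66 ± 0.11, adjusted p = 0.000388), and CDC20 (0.69 ± 0.12, adjusted p = 0.00078). Leaving out 1 of the 6 libraries changed this count to between 5 and 13 (5 without Ctrl soluble replicate 1 or 3, 7 without NaAsO2 soluble replicate 1, 8 without NaAsO2 soluble replicate 3, and 9 without Ctrl soluble replicate 2). The G1/S list had 13 of 25 called higher and none lower in this comparison.

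In the insoluble fraction 9 members were called higher and 14 lower (median -0.21, all genes 0.00), while 21.9% of all genes were called higher and 21.0% lower; without replicate 3 the counts were 10 and 16, with 20 calls shared. NDC80 (-1.01 ± 0.16, adjusted p = 5.63e-05) and DLGAP5 (-1.17 ± 0.20, adjusted p = 0.000115) fell. KIF4A rose, from 214, 240 and 249 CPM to 356, 379 and 369 (0.65 ± 0.10, adjusted p = 4.29e-05). BIRC5 was called higher at 0.93 ± 0.22 (adjusted p = 0.00177), but its values of 156, 171 and 340 CPM rest on replicate 3, and without it the change was 0.47 ± 0.15. A fit of these 2 groups alone, which takes the spread from their 6 libraries, called 1 member.

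**Figure D4:**
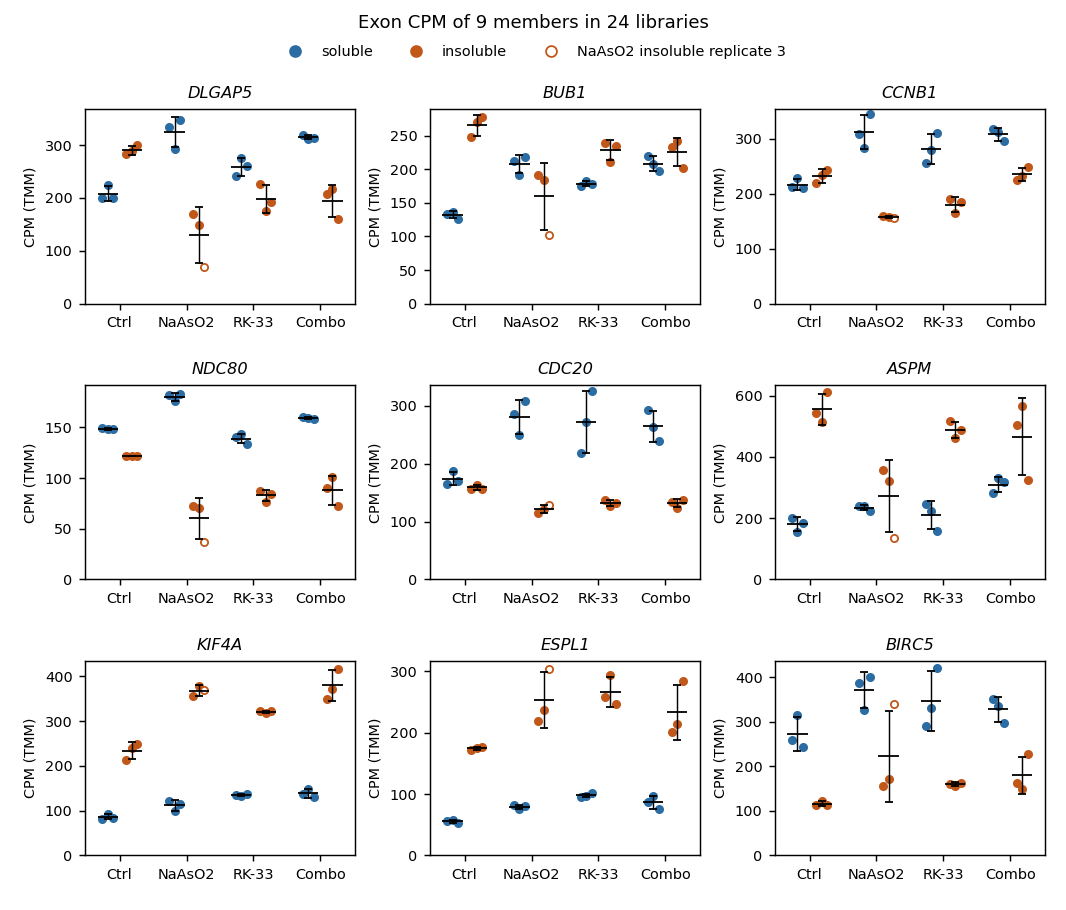
TMM-scaled CPM of 9 members (y axes start at 0) in each of the 24 libraries, soluble in blue and insoluble in orange, with the open circle marking NaAsO2 insoluble replicate 3; bars are the mean ± SD of 3 libraries. DLGAP5, BUB1, NDC80 and ASPM have their lowest insoluble value in the open circle, whereas for ESPL1 and BIRC5 it is the highest insoluble value under NaAsO2.

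RK-33 alone was compared with Ctrl in the same way. In RK-33 cells 14 members were called higher in the insoluble fraction and 20 lower (median -0.18), while 29.6% of all genes were called higher and 30% lower. In the soluble fraction 8 members were called higher than in Ctrl and none lower (median 0.22), against 2.03% and 3.16% of all genes. The 8 became 5 without RK-33 soluble replicate 2 or 3 or any 1 of the 3 Ctrl soluble libraries. KIF4A rose from 82.0, 93.3 and 84.6 to 135, 133 and 137 CPM (0.64 ± 0.10, adjusted p = 0.000646) and ESPL1 from 55.8, 57.7 and 53.0 to 96.0, 96.9 and 101 CPM (0.82 ± 0.13, adjusted p = 0.000762). In the insoluble fraction ESPL1 (0.61 ± 0.13) and KIF4A (0.45 ± 0.10) were called higher, and TPX2 (-0.48 ± 0.11), CCNB1 (-0.37 ± 0.10) and NDC80 (-0.55 ± 0.16) lower, against 5.76% and 8.09% of all genes. These 5 became 3 without Ctrl insoluble replicate 2 or 3 or RK-33 insoluble replicate 2. The fraction shift under RK-33 was called for KIF20A (-0.94), CDC20 (-0.91), TPX2 (-0.76), CCNB1 (-0.75) and KIF2C (-0.69), all toward the soluble fraction, against 0.577% of all genes toward the insoluble and 1.44% toward the soluble fraction. All 5 were also called in the arsenite shift, which shares the Ctrl libraries. With the lysate as a replicate block none of the 5 was called, and 3 were called without Ctrl soluble replicate 1 or 3, Ctrl insoluble replicate 2, RK-33 soluble replicate 3 or RK-33 insoluble replicate 3.

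RK-33 before arsenite (Combo) was compared with each agent alone. In Combo cells 13 members were called higher in the insoluble fraction and 21 lower (median -0.09), while 25% of all genes were called higher and 27.2% lower. DLGAP5 was higher in the pellet in Ctrl but lower in Combo, with 320, 312 and 313 CPM soluble and 207, 217 and 160 insoluble, so its ratio had the sign of NaAsO2. Against NaAsO2, 14 members were called higher in the insoluble fraction and none lower (median 0.31), while 6.59% of all genes were called higher and 7.14% lower. This count rests on single libraries. It was 8 without NaAsO2 insoluble replicate 3 (7 shared), where 7.59% of all genes were called higher and 3.93% lower. It was 25 without NaAsO2 insoluble replicate 1, 1 without Combo insoluble replicate 2, 2 without Combo insoluble replicate 1 and 23 without Combo insoluble replicate 3. CCNB1 was called with and without replicate 3, from 159, 157 and 155 to 225, 232 and 249 CPM (0.58 ± 0.10, adjusted p = 0.000746, and 0.59 ± 0.11). KIF15, a motor that backs up KIF11, was called at 0.48 ± 0.11 (adjusted p = 0.00837). PTTG1 was called only without replicate 3 (0.97 ± 0.12).

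In the soluble fraction no member was called between Combo and NaAsO2 by edgeR, against 4.74% of all genes higher and 1.68% lower. At an unadjusted p under 0.05 there were 6 higher and 1 lower, and DESeq2 called 2. The fraction shift between Combo and NaAsO2 was called for no member (median 0.29, all genes 0.136% and 0.232%), with 10 toward the insoluble fraction at an unadjusted p under 0.05. DESeq2 called 1, and without replicate 3 CCNB1 (0.61 ± 0.14) and PTTG1 (0.95 ± 0.16) were called toward the insoluble fraction. In the fit without replicate 3, 0.769% of all genes were called toward the insoluble fraction and 0.758% toward the soluble one. Against RK-33 alone, 1 member was called higher in the soluble fraction, KNL1, from 152, 136 and 113 to 199, 216 and 218 CPM (0.66 ± 0.13, adjusted p = 0.00421), where 2.85% of all genes were called higher and 0.759% lower. In the insoluble fraction CENPA (0.58 ± 0.11), CCNB1 (0.39 ± 0.10) and PTTG1 (0.80 ± 0.23) were called higher and none lower, against 4.32% and 3.0% of all genes, and 1 of the 3 was called without RK-33 insoluble replicate 2.

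Across the 4 treatments 9 members were called higher in the insoluble fraction each time (CENPF, ESPL1, INCENP, KIF14, KIF2C, KIF4A, KNL1, MKI67 and TOP2A) and 12 lower each time (AURKA, AURKB, BIRC5, BUB3, CDCA8, CDK1, CENPA, CEP55, MAD2L1, PTTG1, SPC24 and SPC25). The share of all genes called the same way in all 4 treatments was not counted, so these counts only describe the members. The rho with coding length was 0.92 in RK-33 and 0.86 in Combo. AURKB, for example, read 69.9, 65.2 and 64.3 CPM in Combo soluble and 37.5, 31.2 and 35.3 in Combo insoluble.

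Intron counts gave a second readout of the same genes. Unspliced mRNA, excised introns and other RNA made from introns cannot be told apart in them. Introns made up 13.9% to 17.97% of the members' exon and intron counts in Ctrl soluble and 9.44% to 10.9% in NaAsO2 soluble. In Combo soluble they made up 14.5% to 20.1%, above every NaAsO2 soluble library. Over all genes the share moved the same way, with 17.7% to 22.3%, 13.7% to 18.9% and 18.1% to 28.4% in these groups. The members' shares overlapped in the insoluble fraction, at 6.08% to 13.8% in NaAsO2 and 9.86% to 12.4% in Combo. Counting used no strand, and 27 members have another gene inside or across their body, so intron values of NUF2 (62.0% of the body covered by other genes), SPC25 (50.6%) and CENPA (46.1%) in particular cannot be told apart from those genes.

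Between fractions, 10 members were called higher in the insoluble fraction on intron counts in Ctrl and 14 lower, while 18.2% of all genes were called higher and 21.5% lower. With library size as the only scaling the split was 1 and 23 and the median over all genes moved from -0.11 to -0.45, so the direction depends on scaling. In RK-33 the counts were 14 and 14 (all genes 23% and 24.8%; 4 and 26 by library size), in NaAsO2 1 and 21 (11.9% and 10.9%) and in Combo 2 and 21 (13.6% and 16.3%). Without NaAsO2 insoluble replicate 3 the NaAsO2 counts were 1 and 22 (all genes 14.6% and 14.8%). BIRC5 introns were the most soluble in all 4 treatments by adjusted p, at -1.39 ± 0.18 in Ctrl (109, 101 and 95.0 CPM soluble and 40.3, 36.3 and 39.3 insoluble), and CENPE introns had the highest ratio in Ctrl at 1.06 ± 0.22.

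Under arsenite the intron counts of 27 of the 46 tested members fell in the insoluble fraction and none rose (median -0.49, all genes 0.09). Of all genes 18.7% were called higher and 12.6% lower. Without replicate 3, 22 fell and 1 rose, and 11.6% of all genes were called higher and 9.83% lower. The nuclear RNAs MALAT1, NEAT1 and KCNQ1OT1 also had a lower sum in NaAsO2 insoluble than in any other group, and their part in the result was not tested. In the soluble fraction 4 fell and none rose, against 1.86% of all genes higher and 3.43% lower, and the count was 1 without NaAsO2 soluble replicate 2 and 2 without NaAsO2 soluble replicate 1 or 3. MAD2L1, a checkpoint protein that inhibits CDC20, had the lowest change in both: 15.8, 13.3 and 11.7 CPM in Ctrl insoluble became 1.70, 2.50 and 0.371 in NaAsO2 insoluble, and 24.2, 16.02 and 20.3 CPM in Ctrl soluble became 5.87, 4.23 and 3.24. These low values are 7, 7 and 1 counts in NaAsO2 insoluble and 11, 11 and 7 in NaAsO2 soluble. The groups did not overlap, and the log2 changes were -3.10 ± 0.34 (adjusted p = 3.97e-07; -2.72 ± 0.35 without replicate 3) and -2.20 ± 0.31 (adjusted p = 3.56e-05). On exon counts the log2 changes of MAD2L1 were 0.29 ± 0.12 in the insoluble fraction (adjusted p = 0.0497) and 0.20 ± 0.11 in the soluble one, which was not called. FBXO5 introns followed, at -1.55 ± 0.19 (adjusted p = 1.77e-06) and -0.83 ± 0.18 (adjusted p = 0.00607).

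Between Combo and NaAsO2 most of the members called on intron counts were higher in Combo. In the soluble fraction 22 were called higher and 1 lower (median 0.52, all genes 0.00), while 9.53% of all genes were called higher and 4.83% lower. In the insoluble fraction 27 were called higher and 3 lower (median 0.61, all genes -0.06), while 13.1% of all genes were called higher and 13.5% lower. Without NaAsO2 insoluble replicate 3 the counts were 29 and 2 (all genes 12.9% and 10.6%). Summed MALAT1, NEAT1 and KCNQ1OT1 were also higher in all Combo than in all NaAsO2 libraries of each fraction, and their part was not tested. HMMR, a spindle-assembly protein that binds microtubules, read 37.9, 19.2 and 35.6 CPM in NaAsO2 soluble and 116, 129 and 90.6 in Combo soluble (1.87 ± 0.23, adjusted p = 8.76e-07), although 28% of its body is also that of the antisense gene HMMR-AS1. CCNB2 went from 57.1, 40.8 and 45.4 to 110, 128 and 111 CPM in the soluble fraction (1.29 ± 0.18, adjusted p = 5.67e-06). CDK1, whose body holds no other gene, went from 50.9, 52.8 and 34.5 to 120, 163 and 107 CPM in the insoluble fraction (1.49 ± 0.17, adjusted p = 1.59e-07), and KIF20A from 12.1, 10.3 and 7.42 to 43.0, 38.1 and 26.3 (1.82 ± 0.22, adjusted p = 4.81e-07). In Ctrl insoluble CDK1 introns read 114, 105 and 106 CPM, so Combo overlapped Ctrl and NaAsO2 lay below both. KIF20A introns read 14.7, 17.6 and 14.9 CPM in Ctrl insoluble. Ctrl soluble held 32.1, 35.4 and 24.6 CPM of HMMR and 40.5, 41.0 and 39.1 of CCNB2. For KIF20A, HMMR and CCNB2 these Combo values lay above every Ctrl library of the same fraction. SPC25 was called lower in both fractions (-0.58 and -0.57), and BUB1B (-0.58) and SPC24 (-0.98) in the insoluble one. For BUB1B and SPC24 the highest NaAsO2 insoluble value was in replicate 3. SPC24 introns read 21.8, 23.9 and 83.8 CPM there, and BUB1B introns 73.8, 63.5 and 113. Over the alternative fits the change ran from -1.32 to -0.09 for SPC24 and from -0.81 to -0.31 for BUB1B.

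**Figure D5:**
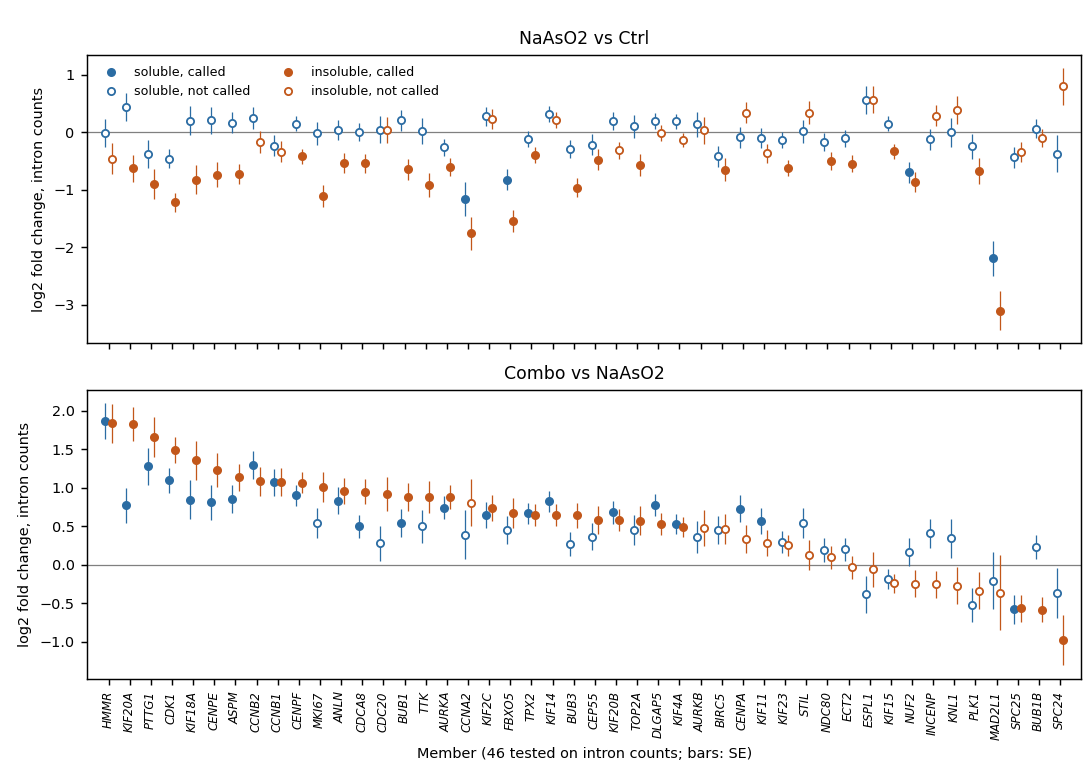
Log2 change of intron counts (y axis) of 46 members for NaAsO2 against Ctrl (top) and Combo against NaAsO2 (bottom), soluble in blue and insoluble in orange; bars are SE and filled points passed the test. In the top panel MAD2L1 (-3.10) lies far below the others, and in the bottom panel most filled points lie above 0, from HMMR (1.87) down.

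The promoters are printed of the 2 members with the smallest adjusted p for higher introns in each fraction in that comparison. Whether the promoters had a part in the intron changes was not tested. The 150 bases run from 100 before to 50 after the RefSeq start on GRCh38.p14, 5′ to 3′ on the gene's strand, all plus. Capitals mark TTTGAA and TTTAAA, the letters of the cell cycle homology element that repressor complexes of the cell cycle use, and CCAAT, bound by NF-Y, on either strand. CDK1 has 2 starts in RefSeq, and the second is shown.
CDK1 chr10:60778378-60778527: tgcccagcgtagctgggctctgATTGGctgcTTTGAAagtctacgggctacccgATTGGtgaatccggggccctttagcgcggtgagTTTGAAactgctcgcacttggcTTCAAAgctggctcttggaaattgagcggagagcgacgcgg
KIF20A chr5:138179012-138179161: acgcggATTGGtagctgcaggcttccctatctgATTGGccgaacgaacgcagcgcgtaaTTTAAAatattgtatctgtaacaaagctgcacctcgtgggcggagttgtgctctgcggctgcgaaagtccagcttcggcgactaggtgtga
HMMR chr5:163460532-163460681: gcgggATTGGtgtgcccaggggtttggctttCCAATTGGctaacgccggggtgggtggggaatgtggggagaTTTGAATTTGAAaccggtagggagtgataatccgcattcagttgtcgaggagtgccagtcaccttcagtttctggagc
CCNB2 chr15:59105046-59105195: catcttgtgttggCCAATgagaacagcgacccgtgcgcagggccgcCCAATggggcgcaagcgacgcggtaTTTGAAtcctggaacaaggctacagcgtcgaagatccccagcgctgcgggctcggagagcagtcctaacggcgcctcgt
Of the 42 members with an entry, 32 (76.2%) hold TTTGAA in the 300 bases from 250 before to 50 after a start, against 18.2% of 27305 genes. TTTAAA was in 16 (38.1% against 14.5%), CCAAT in 35 (83.3% against 39.7%), and TTTGAA together with CCAAT in 27 (64.3% against 7.26%). Each is a match of letters on both strands, TTTAAA being the same on both, and not a measured site. These shares cover all 42 members whatever their intron change, and members were not compared by that change. BUB3, TTK, KNL1, AURKA, TPX2 and BIRC5 are not among the 42.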

How the data were processed

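RNA of 24 libraries was rRNA-depleted and sequenced by the authors, aligned with STAR 2.7.2b to GRCh38.p13, and deposited as raw counts of read pairs per gene over exons and over introns (featureCounts of the Subread package, without a strand option), together with counts of back-splice junctions. Groups and replicates came from the labels. The 48 members, their roles and the comparison lists were chosen with earlier results of these data known.

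Genes that averaged 1 CPM or more were fitted with edgeR 4.0.16 (R 4.3.3): quasi-likelihood test, TMM scaling, 1 model with 8 groups over all 24 libraries, Benjamini-Hochberg adjustment over all tested genes, calls at an adjusted p under 0.05. All adjusted p-values come from this fit unless another tool is named. A fraction shift is the interaction of fraction and treatment, and SE is that of the log2 ratio. Lysate ratios used a pseudocount of 0.5 CPM. Alternatives were other scalings, filters and tests (DESeq2 1.42.0 among them), a fit of the compared groups alone, length and GC offsets (the GC offset was added after seeing the data), a replicate block and leaving out each library. Values per library are given for members picked by role and, in each comparison, for the 2 called members with the smallest adjusted p in each direction. Members at the ends of a range were named after their values were seen.

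The fractions of a replicate come from the same lysate by the study's methods. The deviations of the 12 pairs from their group means correlated at -0.30 to 0.13 (median -0.02). Between treatments the same-numbered NaAsO2 and Combo insoluble libraries correlated at 0.49, 0.42 and 0.69, and in no other pair of treatments did all 3 numbers exceed 0.1. The soluble libraries of these lysates correlated at 0.04, -0.16 and -0.23. Replicate 3 stood apart in both insoluble groups, so a pairing by number and a shared outlying replicate cannot be told apart. The fit was tested on simulated data: of 100 exon genes changed by a log2 of 1 it recovered 50 of NaAsO2 vs Ctrl in the insoluble fraction and 20 of the fraction shift (17666 genes), and of 100 changed by 0.5 it recovered 3 and 0. Only these genes were changed, in NaAsO2 insoluble alone, with no other difference between the groups. In the data 21.9% of genes were called higher and 21.0% lower in NaAsO2 vs Ctrl insoluble. The recovered shares therefore need not hold for the tests reported. Transcript features and overlaps of gene bodies came from GENCODE 44, which is not the release the authors counted on. Shared exon bases came from the exon positions deposited with the counts. Linear counts at back-splice sites were not used.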

Additional observations from a re-analysis of the deposited data

Results flagged for a closer look

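The fraction ratio differed between NaAsO2 and Ctrl by the test of the interaction for 21 members. The log2 shifts were -1.81 for DLGAP5, -1.41 for ASPM, -1.38 for BUB1, -1.29 for NDC80, -1.14 for KIF20A, -1.11 for TTK, -1.09 for CCNB1 and -1.09 for HMMR. They were -1.08 for CCNB2, -1.08 for CDC20, -1.08 for CENPE, -1.003 for NUF2, -0.90 for TOP2A, -0.87 for ANLN, -0.81 for KIF15 and -0.81 for KIF11. The smallest were -0.79 for TPX2, -0.77 for CDK1, -0.74 for BUB1B, -0.73 for KIF2C and -0.46 for BUB3. All 21 were among the 30 called without NaAsO2 insoluble replicate 3.

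Between RK-33 and Ctrl the interaction was called for 5 members, with log2 shifts of -0.94 for KIF20A, -0.91 for CDC20, -0.76 for TPX2, -0.75 for CCNB1 and -0.69 for KIF2C.

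The back-splice counts, which enter no comparison above, held reads of 5 members among 394 junctions. Cyclin B1 had 69 reads over all libraries at chr5:69174877-69175537, of which 53 were in soluble and 16 in insoluble libraries. KIF20B had 22 reads (20 soluble, 2 insoluble), KIF23 had 14 (10 and 4), KIF2C had 22 (17 and 5) and STIL had 22 (22 and 0). No test was run on them.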

How the results depend on the processing

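With a fit of the compared groups alone the count of members called was, on exon counts, 36 for NaAsO2 vs Ctrl soluble, 1 for insoluble, 18 for RK-33 vs Ctrl soluble, 22 for insoluble, 14 for Combo vs NaAsO2 soluble, 0 for insoluble, 6 for Combo vs RK-33 soluble, 5 for insoluble, 10 for the NaAsO2 shift and 17 for the RK-33 shift. On intron counts it was 37 and 7 between fractions in Ctrl and NaAsO2, 8 and 8 for NaAsO2 vs Ctrl soluble and insoluble, and 8 for Combo vs NaAsO2 insoluble. Requiring a log2 change of at least 1 left 14, 15, 15 and 7 calls between fractions in Ctrl, NaAsO2, RK-33 and Combo, 12 in the NaAsO2 shift, 0 in the RK-33 shift, 3 for NaAsO2 vs Ctrl insoluble and 0 in the other exon comparisons of treatments. On introns it left 5, 9, 6 and 8 between fractions, 2 and 5 for NaAsO2 vs Ctrl soluble and insoluble, and 5 and 11 for Combo vs NaAsO2.

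Library size alone gave 7 for NaAsO2 vs Ctrl soluble, 1 and 6 for Combo vs NaAsO2 soluble and insoluble, and 13 and 3 for the NaAsO2 and RK-33 shifts. RLE size factors gave 9, and a filter at 0.1 CPM 6, for Combo vs NaAsO2 insoluble. Removing the GC trend gave 27 and 17 for NaAsO2 and RK-33 vs Ctrl soluble, 9 for RK-33 vs Ctrl insoluble, 4 for Combo vs NaAsO2 soluble, 3 and 7 for Combo vs RK-33 soluble and insoluble, 10 for the RK-33 shift, 1 for the Combo shift, and on introns 7 and 13 for NaAsO2 vs Ctrl soluble and insoluble. Removing the length trend gave 22 between fractions in Combo, 3 for RK-33 vs Ctrl insoluble and 1 for Combo vs NaAsO2 soluble. Exon plus intron counts gave 5 for RK-33 vs Ctrl soluble, 4 for Combo vs NaAsO2 soluble, 4 and 8 for Combo vs RK-33 soluble and insoluble and 1 for the RK-33 shift, and turned the ratio of SPC25 in Ctrl from a log2 of -0.79 to 0.053. The likelihood ratio test and DESeq2 gave 1 and 2 for Combo vs NaAsO2 soluble and 1 each for the Combo shift.

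The replicate block moved the RK-33 shift from 5 to 0 and changed no other count by over 1.5 times. It left 18 calls for Combo vs NaAsO2 insoluble, all 14 among them. Whether the replicate numbers pair samples of different treatments is not known. CDK1 in the NaAsO2 shift and MAD2L1 in NaAsO2 vs Ctrl insoluble also lost their calls under the block. Leaving out 1 library gave 5 to 13 for NaAsO2 vs Ctrl soluble, 5 to 8 and 3 to 4 for RK-33 vs Ctrl soluble and insoluble, 1 to 25 for Combo vs NaAsO2 insoluble, 1 to 3 for Combo vs RK-33 insoluble, 12 to 30, 3 to 5 and 0 to 2 for the NaAsO2, RK-33 and Combo shifts, and 1 to 4 for introns in NaAsO2 vs Ctrl soluble. The causes of these changes were not tested.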
